A study of Rattus norvegicus with 24 samples.

Results

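Transcripts of 10 feedback genes of growth factor signalling were followed in rat lung: the Sprouty genes Spry1, Spry2 and Spry4, the Sprouty-related genes Spred1 and Spred2, the MAP kinase phosphatase genes Dusp4, Dusp5 and Dusp6, and the transcription factor genes Klf10 and Egr1. They were chosen by name from the 30043 genes of the count table, with the values of 1 contrast in view and earlier results of these data known. That contrast, the interaction, is the effect of silica in smoke-exposed rats (combined minus smoke) minus its effect without smoke (silica minus air), on the log2 scale. It and the 4 pairwise differences inside it therefore describe these genes here and are not tested for them. All 10 passed the filter on low counts, as did 13322 genes in all.

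The animals were 24 male Fischer 344 rats (F344/DuCrl), bought at 3 months of age and kept in whole-body inhalation chambers through a schedule of 29 weeks, and each of the 4 groups holds 6 of them. Combined rats breathed cigarette smoke for 3 hours on 2 days a week at 45 mg/m3 in week 1 and 80 mg/m3 in week 2, crystalline silica dust (Min-U-Sil5) at 15 mg/m3 for 6 hours a day on 5 days of week 3, and smoke at 80 mg/m3 again from week 4 to week 29. Silica rats had the same silica week between weeks of air, smoke rats had the smoke schedule from 40 mg/m3 in week 1 with air in week 3, and air rats had air throughout. Week 1 smoke was thus 45 mg/m3 in combined rats and 40 mg/m3 in smoke rats. RNA came from a piece of lung, and the number at the end of a library's name identifies it within its group and pairs nothing.

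Growth factors bind receptor tyrosine kinases, which switch on RAS and a chain of kinases that ends in ERK. Active ERK raises transcription of the genes that later restrain it: Sprouty and Spred proteins act at the level of the receptor, RAS and RAF, and the DUSP phosphatases remove the activating phosphates from ERK and related kinases. In the lung this loop is best known from branching growth, where fibroblast growth factor induces Sprouty. Egr1 is an immediate early gene of the same pathway, and Klf10, also called TIEG1, is an early gene of transforming growth factor beta.

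The stretches of 250 bases just before the annotated start are shown for 3 of the genes, since they hold the short motifs through which ERK signals are known to reach such genes. They come from RefSeq on assembly GRCr8, lie on the strand of the gene and run 5′ to 3′. Egr1 is at chr18:26736828-26737077 on the plus strand, Dusp5 at chr1:262543524-262543773 on the plus strand and Spry4 at chr18:30702547-30702796 on the minus strand. Capitals mark CArG boxes, the sites of serum response factor, in Egr1 and Dusp5. In Dusp5 they also mark an EGR motif (GCGNGGGCG, here on the opposite strand), and in Spry4 an ETS motif (CCGGAA, here on the opposite strand).
Egr1: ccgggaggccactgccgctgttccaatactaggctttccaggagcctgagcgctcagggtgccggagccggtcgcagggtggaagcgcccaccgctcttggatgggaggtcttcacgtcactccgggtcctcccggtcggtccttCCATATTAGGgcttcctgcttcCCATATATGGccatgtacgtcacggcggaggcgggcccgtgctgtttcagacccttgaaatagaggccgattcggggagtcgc
Dusp5: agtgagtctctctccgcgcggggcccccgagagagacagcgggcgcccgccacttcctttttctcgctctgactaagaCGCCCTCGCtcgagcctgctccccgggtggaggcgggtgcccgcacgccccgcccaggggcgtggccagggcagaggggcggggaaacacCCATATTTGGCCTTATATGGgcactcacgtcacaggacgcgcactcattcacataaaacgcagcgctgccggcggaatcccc
Spry4: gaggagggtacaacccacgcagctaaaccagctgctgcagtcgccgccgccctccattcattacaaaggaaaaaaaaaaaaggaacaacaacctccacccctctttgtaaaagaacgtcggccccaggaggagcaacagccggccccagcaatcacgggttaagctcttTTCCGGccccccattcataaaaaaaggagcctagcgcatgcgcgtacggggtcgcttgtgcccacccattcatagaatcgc
Egr1 had its pair of CArG boxes 105 and 83 bases before the start, and Dusp5 had its pair 82 and 72 bases before the start. RefSeq windows were matched for 8 of the 10 genes, 9 windows in all because Spry2 has a pair, and none was matched for Dusp4 and Klf10. Both strands were searched. A CArG box was present in 2 of the 9 windows and in 1.5% of 33469 windows of that length, the ETS motif in 2 of 9 and 12.6%, and the EGR motif in 3 of 9 and 4.29%. The windows with the EGR motif were both windows of Spry2 and that of Dusp5. The EGR and ETS motifs do not overlap a CArG box in the windows printed. The AP-1 motif TGANTCA (6.34% of all windows) and the CRE motif TGACGTCA (1.59%) were in none of the 9. These are matches of letters in a short window and were not tied to binding or to the values below.

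Library totals ran from 21629 counts in smoke 2 to 4687805 in air 6, and silica 4 had 280484. Smoke 2 held 1 count from the 10 genes together, and there 3 counts equal 139 CPM (counts per 1000000 counts of that library), so it is left out of the CPM ranges below but stays in the model. Haemoglobin transcripts, Hbb and Hba1, made up 44.1% of the counts of smoke 2 and 1.24% or less of those of any other library. In silica 4, 3 counts equal 10.7 CPM. Levels of Mmp12, which encodes an elastase of macrophages, set 2 libraries apart from their labelled groups. In the library labelled silica 1 the level was 3.26 CPM, beside 57.0 CPM or more in the rest of that group. In the library labelled smoke 1 it was 57.9 CPM, beside 11.9 CPM or less in the rest of that group apart from smoke 2. Labels were kept. Air 6 also stood apart: its counts differed from those of the other air libraries with a chi-square per degree of freedom of 13.7 to 22.6, beside 1.85 to 7.73 among those 5. The 7 fibroblast and smooth muscle markers summed to 6613 CPM in air 6 and to 1195 to 1390 CPM in the other air libraries, with Col3a1, a fibrillar collagen, at 5100 CPM in air 6. Apart from smoke 2, every library held lung markers, with Sftpc at 4216 to 8361 CPM, Scgb1a1 at 1034 to 2878 CPM and Ager at 1055 to 1605 CPM.

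Spry1, a brake on receptor signalling, was the feedback gene with the lowest adjusted p, and silica-exposed groups had less of it. Its lowest, median and highest CPM were 20.2, 22.5 and 36.0 in combined libraries, 23.03, 28.2 and 33.0 in silica libraries, 34.6, 37.4 and 46.5 in smoke libraries, and 33.5, 43.6 and 45.3 in air libraries. Every combined library but combined 4 lay below every smoke and air library. The silica libraries all lay below air, but narrowly, with silica 2 at 33.0 CPM and air 3 at 33.5 CPM. Such a gap downwards between silica and air, of any width, was shown by 0.616% of all genes tested. The difference between silica and air is part of the contrast that chose the genes. In RNA from whole tissue, fewer cells of a type and less RNA per cell cannot be told apart. By edgeR's quasi-likelihood test Spry1 was lower in combined than in air lungs by a log2 fold change of -0.74 ± 0.13 (SE), or 0.597 times the air level (adjusted p = 1.40e-04). Averaged over rats with and without smoke, silica went with a log2 difference of -0.58 ± 0.09 (edgeR adjusted p = 8.94e-05). Without silica 1, smoke 1 and smoke 2 these values were -0.76 and -0.64, without silica 4 and combined 4 they were -0.84 and -0.63, and without air 6 they were -0.72 and -0.57.

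Spry2 and Spry4, close relatives of Spry1, had their lowest medians in the combined group. Spry4 CPM were 33.2, 38.8 and 45.8 (lowest, median, highest) in combined libraries, 43.4, 54.8 and 64.6 in silica libraries, 47.3, 65.2 and 78.2 in smoke libraries, and 40.5, 47.6 and 63.2 in air libraries. All combined libraries lay below all 5 smoke libraries, a gap seen downwards in 5.92% of genes, while combined and air overlapped. The difference between combined and smoke is part of the contrast that chose the genes. Spry2 ran from 23.05 to 31.8 CPM with a median of 27.4 in combined libraries, from 28.9 to 42.9 with a median of 35.7 in silica libraries, from 25.8 to 40.6 with a median of 34.2 in smoke libraries, and from 21.1 to 37.5 with a median of 29.9 in air libraries. The Spry2 ranges of all 4 groups overlapped. Spry4 stood at 0.19 ± 0.13 log2 in silica against air but at -0.71 ± 0.13 in combined against smoke, neither of them tested. Their average, silica averaged over smoke, was called lower at -0.26 ± 0.09 log2 (edgeR adjusted p = 0.0476). That call was lost in 17 of the 24 fits that left out 1 library, with adjusted p up to 0.119 (at -0.22, without smoke 3), and also with DESeq2, limma voom and no filter on low counts. The 17 were those without combined 2, 3, 4, 5 or 6, silica 2, 3, 4 or 5, smoke 1, 3, 4 or 6, or air 1, 2, 3 or 4. With silica 1, smoke 1 and smoke 2 left out it was -0.30 (adjusted p = 0.0229). Combined against air, Spry4 stood at -0.24 ± 0.13 and Spry2 at -0.06 ± 0.14, and neither passed the test.

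The Spred genes encode membrane proteins that bring neurofibromin, which inactivates RAS, to the membrane. Spred1 had 134, 148 and 167 CPM (lowest, median, highest) in combined libraries, 143, 149 and 172 in silica libraries, 129, 175 and 181 in smoke libraries, and 140, 162 and 185 in air libraries. These ranges overlapped throughout, and Spred1 passed no test, with -0.07 ± 0.09 log2 for combined against air. Spred2 was read at few counts: 4.05, 5.65 and 8.30 CPM in combined libraries, 4.20, 5.48 and 14.3 in silica libraries, 7.03, 9.16 and 10.5 in smoke libraries, and 6.15, 8.07 and 10.4 in air libraries. Its high silica value came from silica 4, where it rests on 4 counts. Spred2 was lower with silica averaged over smoke by -0.50 ± 0.16 log2 (edgeR adjusted p = 0.0227). The call was lost without silica 5 (-0.44, adjusted p = 0.0585), without smoke 3 (-0.47, adjusted p = 0.0515) and with DESeq2 (adjusted p = 0.155), and leaving out silica 1, smoke 1 and smoke 2 gave -0.62 (adjusted p = 0.00597).

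Dusp4 went the opposite way from Spry1 and was the feedback gene that rose. It encodes a nuclear phosphatase for ERK, JNK and p38 kinases. Dusp4 CPM were 31.5, 27.8, 26.5, 23.05, 28.9 and 42.1 in combined libraries 1 to 6, 13.5, 24.4, 20.3, 28.5, 27.9 and 32.1 in silica libraries 1 to 6, 31.5, 18.7, 26.4, 13.8 and 23.9 in smoke libraries 1, 3, 4, 5 and 6, and 15.1, 20.1, 12.3, 15.3, 16.9 and 13.2 in air libraries 1 to 6. Every combined library was above every air library, a gap seen upwards in 5.37% of genes. The lowest silica value was in silica 1 and the highest smoke value in smoke 1, the libraries whose Mmp12 stood apart. Dusp4 was higher in combined than in air lungs by 1.03 ± 0.19 log2, or 2.04-fold (edgeR adjusted p = 2.79e-04), and by 0.97 without air 6 (adjusted p = 6.41e-04). It was also higher with silica averaged over smoke, by 0.55 ± 0.14 (edgeR adjusted p = 0.00576), and by 0.68 without silica 1, smoke 1 and smoke 2 (adjusted p = 1.85e-04). With smoke averaged over silica the value was 0.48 ± 0.14, which did not pass (edgeR adjusted p = 0.0968), and it was 0.34 without silica 1, smoke 1 and smoke 2 (adjusted p = 0.364).

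Dusp6, a cytoplasmic phosphatase specific for ERK and a common transcript readout of ERK activity, was lower in combined than in air lungs. It had 126, 139 and 164 CPM (lowest, median, highest) in combined libraries, 138, 181 and 222 in silica libraries, 143, 167 and 193 in smoke libraries, and 132, 197 and 257 in air libraries. The combined range overlapped the air range only through air 6, the lowest air library, which lay within it. The difference was -0.44 ± 0.13 log2, or 0.739 times the air level (edgeR adjusted p = 0.0147). It was -0.35 without air 3, the highest air library, and then did not pass (adjusted p = 0.0544). With silica 1, smoke 1 and smoke 2 left out it was -0.45 (adjusted p = 0.00415), and without air 6 it was -0.54 (adjusted p = 7.79e-04). With smoke averaged over silica Dusp6 stood at -0.29 ± 0.09, not called (edgeR adjusted p = 0.147), but it was called at -0.34 without air 6 (adjusted p = 0.0217).

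Dusp5, a nuclear phosphatase specific for ERK, had 7.70, 12.2 and 15.3 CPM (lowest, median, highest) in combined libraries, 9.95, 15.1 and 25.0 in silica libraries, 11.2, 15.7 and 17.4 in smoke libraries, and 8.14, 11.1 and 14.7 in air libraries. All 4 ranges overlapped, and Dusp5 passed no test, with 0.08 ± 0.20 log2 for combined against air and 0.03 ± 0.15 for silica averaged over smoke.

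**Figure D1:**
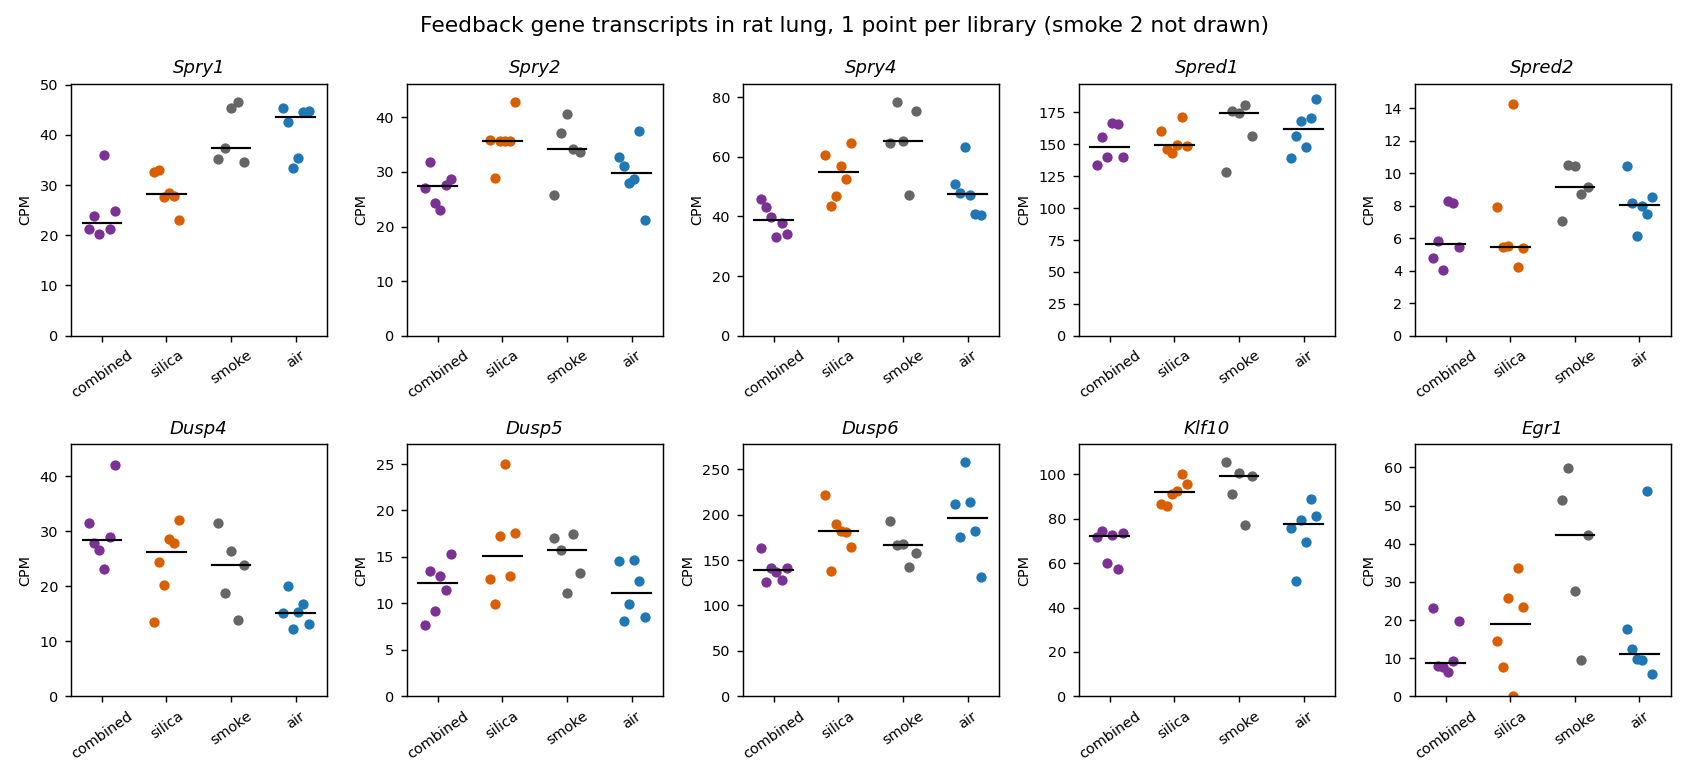
CPM of each feedback gene (vertical axes, each starting at 0 with its own scale), 1 point per library and a line at the group median, for combined, silica, smoke and air lungs, without smoke 2. Dusp4 in combined libraries sits at 23.05 CPM or more, above every air library, while Klf10 in combined libraries stays at 74.6 CPM or less, below every silica and smoke library.

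Klf10 set the combined group apart from each single exposure. It had 57.4, 72.3 and 74.6 CPM (lowest, median, highest) in combined libraries, 85.9, 91.8 and 100.2 in silica libraries, 77.1, 99.3 and 105.4 in smoke libraries, and 52.2, 77.7 and 88.8 in air libraries. All combined libraries were below all silica libraries, a gap seen downwards in 0.713% of genes, and below all 5 smoke libraries, a gap seen downwards in 5.92%. Both differences are part of the contrast that chose the genes, so these gaps are a description. The combined and air ranges overlapped, with 4 of the 6 air libraries above the highest combined library and 1 below the lowest. Klf10 passed none of the tests, with -0.09 ± 0.11 log2 for combined against air, -0.05 ± 0.08 for silica averaged over smoke and -0.04 ± 0.08 for smoke averaged over silica.

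Egr1 varied most within groups, with a pooled within-group SD of 1.25 on the log2(CPM + 1) scale, against 0.15 to 0.36 for the other feedback genes. It had 6.45, 8.70 and 23.1 CPM (lowest, median, highest) in combined libraries, 0, 19.0 and 33.6 in silica libraries, 9.45, 42.2 and 59.9 in smoke libraries, and 5.97, 11.2 and 53.9 in air libraries. The 0 was in silica 4, where the limit of 3 counts is 10.7 CPM. Air 5, at 53.9 CPM, stood far above the other air libraries, of which the next had 17.7 CPM. Fos, the immediate early gene most often read beside Egr1, was at 138 CPM in air 5 and at 169 CPM in smoke 1, the highest values of Fos among 23 libraries, but smoke 3, with the highest Egr1, had 51.7 CPM of Fos, the 9th highest. Egr1 passed no test, and combined against air, at -0.43 ± 0.49 log2, became 0.34 without air 5. The sources used here do not give how fast each lung was taken, and its part in the Egr1 and Fos values was not tested.

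In the contrast that chose the genes, all 10 had a negative value, and this count is fixed by the choice. The size differed by gene. Egr1 had -1.83 ± 0.66 log2 (SE), Spry4 -0.91 ± 0.19, Klf10 -0.77 ± 0.16, Dusp5 -0.72 ± 0.29 and Spry2 -0.59 ± 0.20. The other 5 were closer to 0 relative to their errors: Dusp4 had -0.29 ± 0.28, Spry1 -0.22 ± 0.19, Spred2 -0.18 ± 0.31, Dusp6 -0.11 ± 0.19 and Spred1 -0.03 ± 0.13. The median of all 10 was -0.44, beside 0.01 over all genes, and 48.5% of all genes had a negative value. Over the alternatives run, 332 of 340 values of these genes were negative, and those above 0, at most 0.11, were of Spred1 and Dusp6. The alternatives refit the same libraries for genes chosen on this contrast, so their signs are no separate evidence. For this contrast edgeR called 0% of all genes, with 977 of 13322 at an unadjusted p under 0.05, while DESeq2 called 1, limma voom called 0 and limma voom with quality weights called 9.

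The 5 genes with the larger values shared a form. Klf10 stood at 0.33 ± 0.11 log2 in silica against air and 0.35 ± 0.11 in smoke against air, a sum of 0.68, and at -0.09 ± 0.11 in combined against air. For Spry4 the single effects were 0.19 ± 0.13 for silica and 0.47 ± 0.13 for smoke, a sum of 0.66, beside -0.24 observed with both. Spry2 had a sum of 0.53 beside -0.06 observed, Dusp5 had 0.80 beside 0.08, and Egr1 had 1.40 beside -0.43. For these genes the value of each single exposure lay above air, and the combined group lay near air or below it. Spry2 stood at 0.32 ± 0.14 with silica and 0.22 ± 0.14 with smoke. Dusp5 stood at 0.39 ± 0.20 with silica and 0.40 ± 0.20 with smoke. Egr1 fits the form least firmly, with 0.25 ± 0.47 for silica, smaller than its SE, and 1.15 ± 0.44 for smoke. Without air 5 its combined value became 0.34, above air. The other genes had no such form. Spry1 had a sum of -0.52 beside -0.74 observed, almost all of it from silica (-0.47 ± 0.13) rather than smoke (-0.05 ± 0.13). For Dusp4 the single effects, 0.70 ± 0.20 for silica and 0.63 ± 0.20 for smoke, added up to 1.32 beside 1.03 observed. These comparisons share the air libraries, and no p is given for them because the genes were chosen on them.

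**Figure D2:**
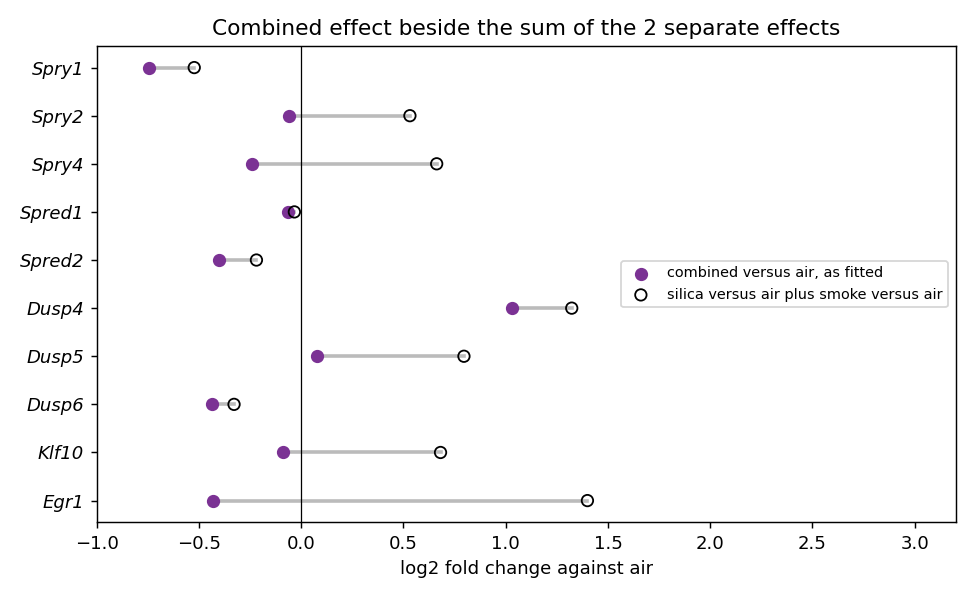
Log2 fold change against air (horizontal axis) for each feedback gene, as fitted for the combined group (filled) and as the sum of the silica and smoke effects (open), joined by a bar whose length is the interaction. The bar is longest for Egr1, from -0.43 to 1.40, and shortest for Spred1.

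Set against the whole table, the feedback genes were called about as often as other genes. In combined against air 3 of 10 were called, 1 higher (Dusp4) and 2 lower (Spry1 and Dusp6), where 22.4% of all genes were called, 11.6% higher and 10.8% lower. With silica averaged over smoke 4 of 10 were called, 1 higher (Dusp4) and 3 lower (Spry1, Spry4 and Spred2), where 20.5% of all genes were called, 10.5% higher and 9.98% lower. For Spry4 that average joins 0.19 log2 without smoke and -0.71 with smoke. With 10 genes, shares this close to the background are no result about the feedback genes as a set. Their median was -0.17 log2 for combined against air and -0.10 for silica averaged over smoke, beside -0.01 and -0.00 over all genes. With smoke averaged over silica edgeR called 0 of the 10 and 0.848% of all genes. Dusp4 and Dusp6 had an unadjusted edgeR p under 0.05 there, which is 2 of the 10, where 1805 of all 13322 genes did. DESeq2 and limma voom also called 0 of the 10. The 3 comparisons share libraries, since the combined and air groups enter each of them.

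**Figure D3:**
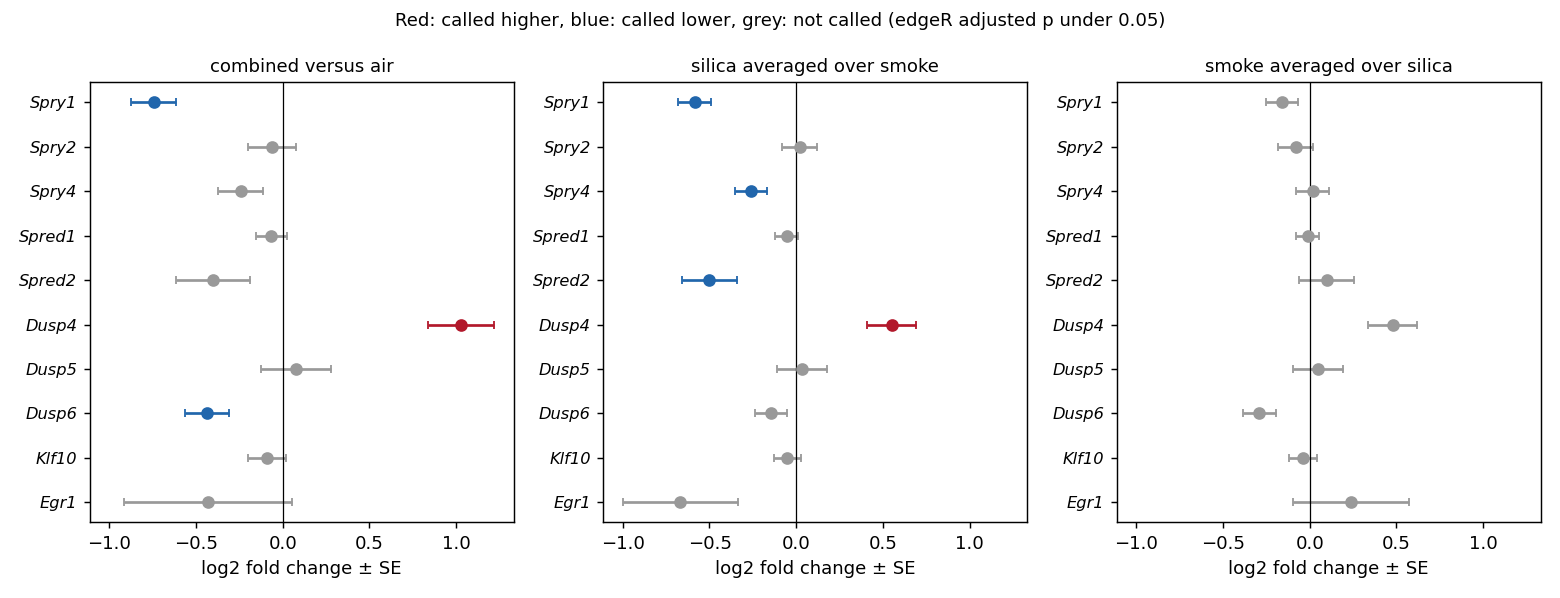
Log2 fold change with its SE (horizontal axes) of each feedback gene in the 3 comparisons tested, which differ from the contrast that chose the genes: combined against air, silica averaged over smoke and smoke averaged over silica. Red points were called higher, blue lower and grey not called by edgeR, and Dusp4 in red stands opposite Spry1 in blue in the first and second panels.

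The number of the 10 genes above the median of the library's own group ran from 1 in silica 2 and smoke 6 to 9 in air 1. The mean of the 10 standardised levels was itself scaled to a mean of 0 and an SD of 1 over the 23 libraries. This score ran from -2.04 to -0.37 in combined libraries, with a median of -0.98. It ran from -1.02 to 1.17 in silica libraries, with a median of 0.61, from 0.23 to 1.54 in smoke libraries, with a median of 1.11, and from -1.31 to 0.77 in air libraries, with a median of -0.37. These scores rest on the values that chose the genes and are a description. Among other genes, the profiles nearest to that score over 23 libraries were those of Ahnak, a large scaffold protein of the membrane and muscle, Cobll1, LOC103691900, R3hdm2 and Tcp11l2. Their root mean square distances to it were 0.657, 0.665, 0.677, 0.678 and 0.697 SD, beside a median of 1.39 over all genes. The feedback genes themselves stood at 0.656 (Spry2) to 1.38 (Dusp4).

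**Figure D4:**
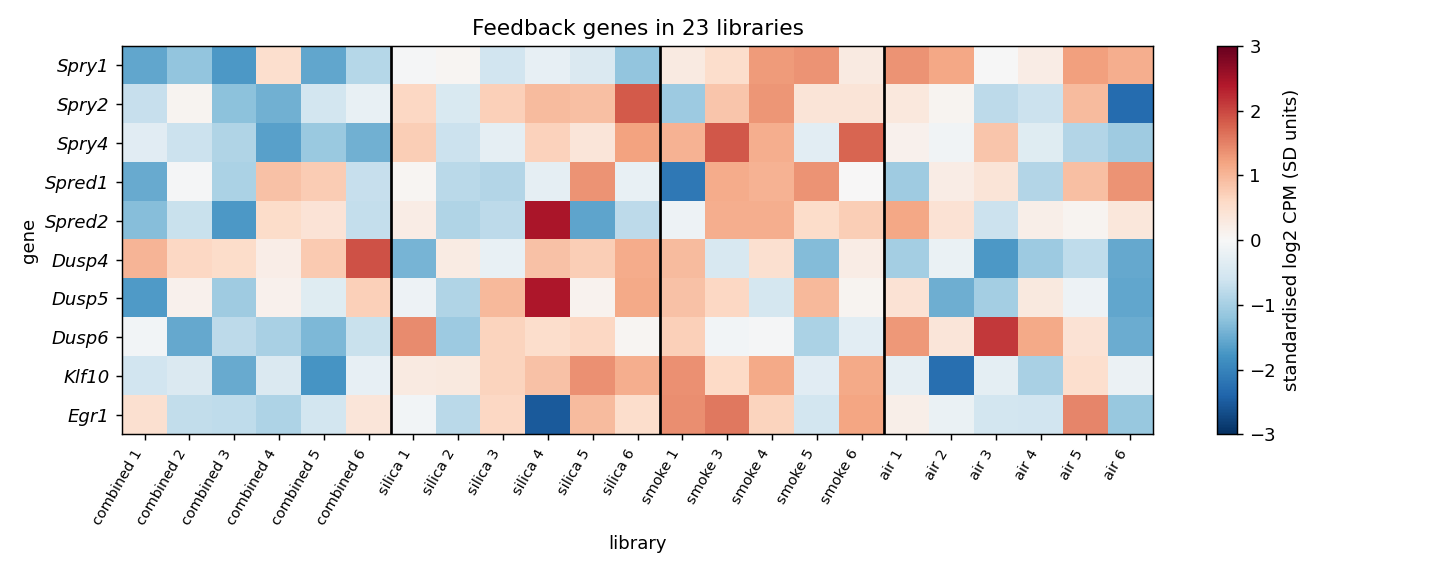
Standardised log2 CPM of the 10 feedback genes (rows) in 23 libraries (columns, without smoke 2), grouped as combined, silica, smoke and air, with red above and blue below each gene's mean. Klf10 is below its mean in all 6 combined libraries, Dusp4 is above its mean in all 6, and Egr1 in silica 4 is the 0 named in the text.

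Around the loop, receptors and ligands were called lower more often than higher in combined lungs and with silica averaged over smoke. Of 17 receptor tyrosine kinase genes, 9 were lower and 1 higher in combined than in air lungs, with a median of -0.33 log2 beside -0.01 for all genes. With silica averaged over smoke 11 were lower and 1 higher, with a median of -0.31. Without air 6 these counts were 7 lower and 1 higher, and 12 lower and 1 higher. Over all genes 10.8% were called lower in combined against air and 9.98% with silica. Pdgfrb and Pdgfra, the receptors of platelet-derived growth factor on mesenchymal cells, were at -0.82 ± 0.16 (edgeR adjusted p = 5.28e-04) and -0.66 ± 0.10 (adjusted p = 4.28e-05) in combined against air, and at -0.59 and -0.73 without air 6. Met, the receptor of hepatocyte growth factor, was the 1 that rose, by 0.75 ± 0.14 (edgeR adjusted p = 3.53e-04). Met had 350 to 398 CPM in combined libraries, 206 to 471 in silica libraries, 221 to 344 in smoke libraries, and 200.1 to 258 in air libraries. Its ligand Hgf was lower by -0.44 ± 0.10 (edgeR adjusted p = 0.00288), and Vegfc, which drives lymphatic vessel growth, was lower by -0.74 ± 0.17 (edgeR adjusted p = 0.00196). Of 13 ligand genes tested, out of 20 listed, 5 were lower and 2 higher in combined than in air lungs (4 and 1 without air 6), and 6 were lower and 1 higher with silica averaged over smoke.

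Of 20 genes of the relay from RAS to ERK, 3 were higher and 1 lower in combined than in air lungs, with a median of -0.05 log2. This share of called genes is near the 22.4% over all genes. Shc1, an adaptor at the receptor, rose by 0.54 ± 0.11 (edgeR adjusted p = 0.00102), and Map2k1, which encodes the ERK kinase MEK, rose by 0.44 ± 0.10 (edgeR adjusted p = 0.00244). Of 13 other brakes on the pathway, 3 were lower and none higher, a total near that share, while 10.8% of all genes were called lower. Among them was Errfi1, an inhibitor of the epidermal growth factor receptor, at -0.65 ± 0.17 (edgeR adjusted p = 0.00764). The other lower calls were lost in 5 and 14 of the 24 fits that left out 1 library. Without air 6, 2 of the 13 brakes were lower. Of 20 other transcripts known to be induced by ERK, 1 was higher and 1 lower, and the lower was Etv1 at -0.56 ± 0.12 (edgeR adjusted p = 0.00111). Without air 6, 2 of these 20 were lower and none higher. Nearer relatives of the feedback genes split. Spred3 rose in combined against air by 0.71 ± 0.19 (edgeR adjusted p = 0.00774), a call that DESeq2 did not make (adjusted p = 0.147). Of 8 other MAP kinase phosphatase genes tested, Dusp2, found mainly in blood cells, rose by 1.13 ± 0.31 (edgeR adjusted p = 0.00907), and Dusp7 was lower by -0.28 ± 0.09 (edgeR adjusted p = 0.0214). The Dusp7 call was lost without combined 2, combined 5 or air 6, with a value of -0.19 in the last case (adjusted p = 0.0885). Dusp1 was at -0.60 ± 0.28 and did not pass (edgeR adjusted p = 0.123). Of 15 genes of the transforming growth factor beta list, to which Klf10 responds, 3 were higher and none lower, among them Tgfbr1, which encodes a receptor for that factor, at 0.90 ± 0.13 (edgeR adjusted p = 1.17e-05).

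In the interaction edgeR called 0 of 130 tested genes of the 11 pathway lists, with 21 at an unadjusted p under 0.05, and DESeq2, limma voom and limma voom with quality weights also called 0. Among the 20 other ERK-induced transcripts 16 had a negative value, with a median of -0.51 log2 beside 0.01 for all genes. This list was chosen with earlier results of these data known, and its genes were read in the same libraries. The count is thus a description and not 20 separate observations. Picked after their values were seen, Fosb had -1.94 ± 0.69, Nr4a1 -1.52 ± 0.42, Fos -1.23 ± 0.64 and Fosl2 -0.92 ± 0.25, with edgeR adjusted p of 0.339 to 0.718. Negative values were held by 10 of the 20 relay genes, 6 of the 13 other brakes, 11 of the 17 receptors and 9 of the 13 ligands. They were held by 6 of the 8 other MAP kinase phosphatases, 3 of the 4 other EGR and TIEG factors and EGR corepressors, 7 of the 15 genes of the transforming growth factor beta list, 9 of the 14 clock genes and 0 of the 6 glucocorticoid-induced genes, and Spred3 had a positive value.

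With smoke averaged over silica edgeR called 0 of the 96 genes tested in the 8 signalling lists, where 0.848% of all genes were called. An unadjusted edgeR p under 0.05 was held by 13 of the 96, beside 1805 of all 13322 genes. DESeq2 and limma voom also called 0, and limma voom with quality weights called 1. The calls there fell in lists of other pathways that can act on the feedback genes. Of 14 clock genes, 6 were higher and 3 lower, with Nr1d1, a repressor of the clock, at 2.02 ± 0.18 log2 and Dbp at 1.76 ± 0.17. Of 6 glucocorticoid-induced genes tested, 3 were lower and none higher, with Zbtb16 at -1.55 ± 0.17 and Tsc22d3 at -0.64 ± 0.10. The sources used here do not give the hour at which each animal was killed, and the part of clock and hormone signals in the levels of the feedback genes was not tested.

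**Figure D5:**
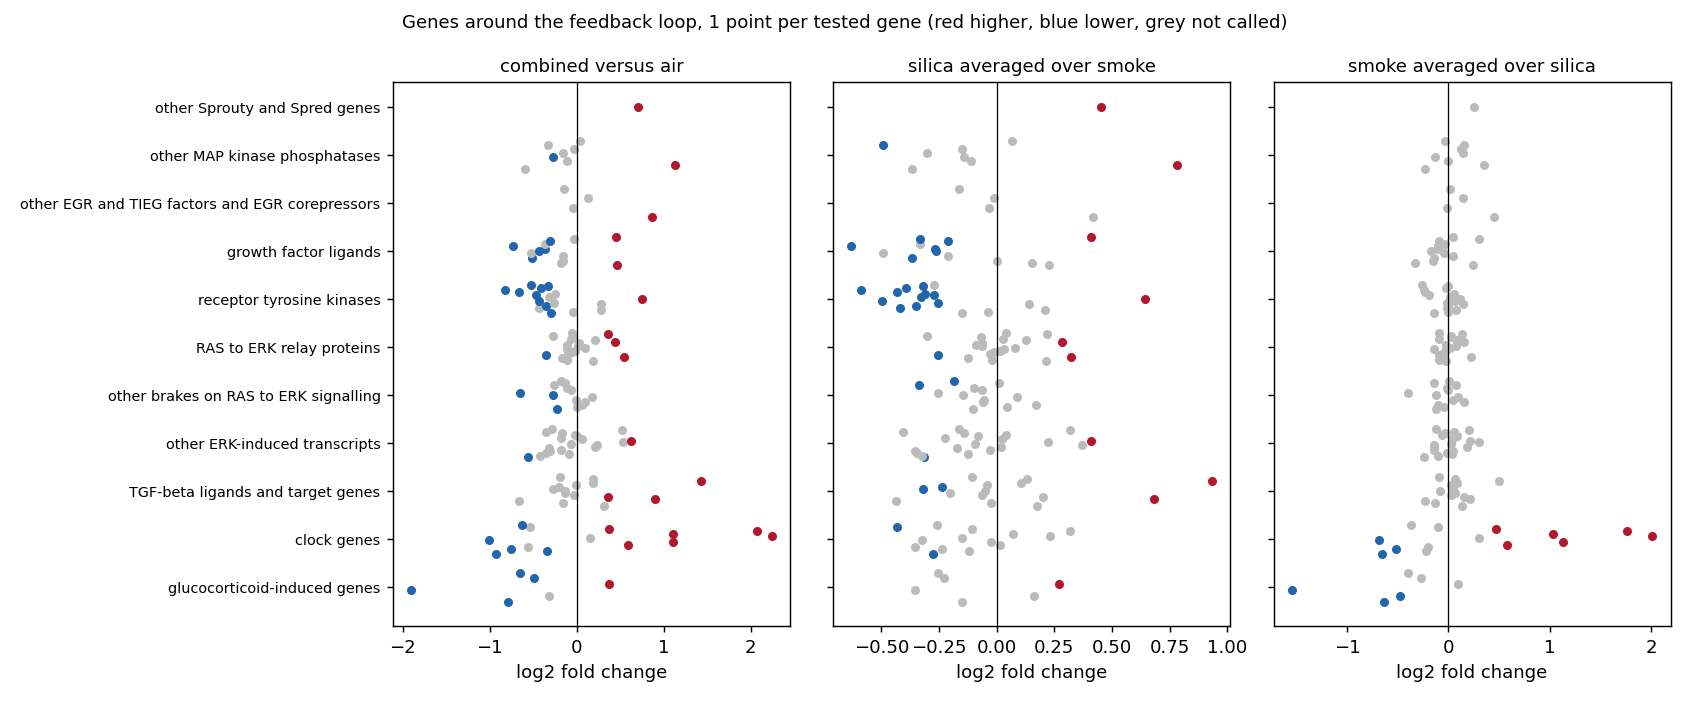
Log2 fold change (horizontal axes, each panel with its own scale) of every tested gene of 11 lists around the feedback loop, for combined against air, silica averaged over smoke and smoke averaged over silica. Red was called higher, blue lower and grey not called by edgeR. Receptor tyrosine kinases carry 9 blue points and 1 red point in the first panel and none in the third, where the coloured points are clock and glucocorticoid-induced genes.

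Markers of several cell types were called in the same comparisons. Over all genes 11.6% were called higher and 10.8% lower in combined against air, and 10.5% and 9.98% with silica averaged over smoke. Of 8 endothelial markers, 5 were lower and none higher in combined than in air lungs, with a median of -0.44 log2, and 7 were lower with silica averaged over smoke. Their summed level was 2140 to 2400 CPM in combined libraries, 2139 to 3410 in silica libraries, 3037 to 3464 in smoke libraries, and 2780 to 3612 in air libraries. The 6 markers of alveolar type 1 cells summed to 2954 to 3183 CPM in combined libraries, 2952 to 4081 in silica libraries, 3504 to 4138 in smoke libraries, and 3853 to 4249 in air libraries, and 4 of them were lower in combined than in air lungs. Of 7 fibroblast and smooth muscle markers 3 were lower, and 1 without air 6. They summed to 1049 to 1207 CPM in combined libraries, 1045 to 1217 in silica libraries, 1195 to 1466 in smoke libraries, and 1195 to 6613 in air libraries. Of 7 alveolar type 2 markers 3 were higher. They summed to 25280 to 28913 CPM in combined libraries, 14550 to 26419 in silica libraries, 15628 to 21777 in smoke libraries, and 14336 to 22494 in air libraries. Of 5 neutrophil markers 4 were higher, and they summed to 365 to 823 CPM in combined libraries, 128 to 649 in silica libraries, 131 to 510 in smoke libraries, and 83.3 to 149 in air libraries. Of 6 macrophage markers tested 2 were higher, and Marco was at 0 in 16 of 23 libraries. The 7 listed macrophage markers summed to 29609 to 35559 CPM in combined libraries and 14059 to 32137 in silica libraries. Their sums were 15398 to 25346 CPM in smoke libraries and 9706 to 21690 in air libraries. Adipocyte markers summed to at most 2.77 CPM in any library. Without air 6, none of the T and B cell, cardiac muscle and erythroid markers tested was called in combined against air. Of the airway markers 1 was higher and 1 lower there. The summed levels of these lists overlapped between combined and air libraries. The part of cell makeup in the lower Spry1 and Dusp6, the higher Dusp4 and the calls of receptor and ligand genes was not tested.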

How the data were processed

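The authors deposited raw counts, whole numbers of reads for each gene, from 24 lung libraries. The submitters' processing notes name HTSeq 0.11.2, HISAT2 2.1.0, Trimmomatic 0.35, SAMtools 1.8, bcl2fastq 2.19 and Cufflinks. The sources used here do not give the build, annotation or strand setting of the counting, so a gene and its antisense partner may share counts. Per the labels' protocols the kit (ribosomal RNA removed) keeps strand. Of 30069 lines, 26 repeated another line and were removed.

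In R 4.3.3, edgeR 4.0.16 was fitted to all 24 libraries with 1 mean per group (filterByExpr with a minimum count of 10, TMM scaling, quasi-likelihood tests, 20 residual degrees of freedom), and Benjamini-Hochberg adjusted p under 0.05, two-sided and over 13322 genes, was called. Each SE was computed as the size of the log2 fold change over the root of its F statistic. Silica averaged over smoke is the mean of combined minus smoke and silica minus air, and smoke averaged over silica is the mean of combined minus silica and smoke minus air. With equal groups and precision these and combined minus air are orthogonal to the interaction, and the averaged effects are only nearly so here because smoke 2 adds little. The steps were tested on simulated counts. DESeq2 1.42.0 and limma 3.58.1 (voom, also with quality weights), other scalings, no filter and left-out libraries were alternatives. Library pairs within a group differed by more than counting noise (chi-square per degree of freedom of 1.73 or more, 28.5 to 74.2 for smoke 2), and p-values measure the spread between these animals. CPM ranges use the library's own total. Standardised levels have a mean of 0 and an SD of 1 per gene and use log2 CPM with 0.5 counts added.

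The 10 genes, 11 pathway lists, 11 marker lists and the tests were chosen with earlier results of these data known. All 216 listed genes were found, and 198 were tested. The naming rule took all 10 feedback genes, up to 4 called genes with the smallest p and the 2 most abundant genes not called per list and comparison, and the 5 nearest profiles. Only some of the list genes are described, partly by whether their call held, and 1 is counted in its list but not reported here by name.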

Additional observations from a re-analysis of the deposited data

Results flagged for a closer look

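Among 40 sets of 1 feedback gene in 1 group, 3 held a library far from the others of its group. The measure was the gap to the next library over the range of the group. Chance alone would mark about 1 set in 20 if values were normally distributed, and the rate for these CPM values was not measured. Spry1 stood at 36.0 CPM in combined 4, where the next combined library had 24.8 CPM. Spred2 stood at 14.3 CPM in silica 4, where the next silica library had 7.93 CPM, and this value rests on 4 counts in a library of 280484. Egr1 stood at 53.9 CPM in air 5, where the next air library had 17.7 CPM.

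For Klf10, smoke 2 left out, the effect of each exposure pointed one way without the other exposure and the opposite way with it. All 6 combined libraries lay below the smoke mean, while all 6 silica libraries lay above the air mean. All 6 combined libraries lay below the silica mean, while all 5 smoke libraries lay above the air mean. Both readings are the same interaction of -0.77 log2, which helped choose the gene, so the difference was not tested.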

How the results depend on the processing

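The calls of Spry1 and Dusp4, in combined against air and with silica averaged over smoke, were made under every alternative run, and the direction of Dusp6, Spry4 and Spred2 was kept where their calls were lost. With DESeq2, calls over all genes numbered 1665 in combined against air (edgeR 2987), 1521 with silica averaged over smoke (2725), 42 with smoke averaged over silica (113) and 1 in the interaction (0), and only 1 feedback gene was called lower with silica. Smoke averaged over silica gave 63 calls with limma voom, 190 with voom quality weights and 47 without silica 1, smoke 1 and smoke 2. The interaction gave 9 with voom quality weights and 19 without silica 1, smoke 1, smoke 2 and air 6, where 1 feedback gene, Dusp6, was called lower with smoke. There Dusp6 was also called lower with silica, at -0.20 (adjusted p = 0.0223). The cause was not tested.

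Leaving out 1 library gave 2361 to 3270 calls in combined against air, with 1 to 2 feedback genes lower, 2169 to 3329 with silica averaged over smoke, with 1 to 3 lower, and 47 to 203 with smoke averaged over silica, with 0 to 1 lower. The values that changed sign had passed no test. Fits without 1 library gave, in combined against air -0.024 to 0.19 for Dusp5, -0.72 to 0.34 for Egr1 and -0.16 to 0.0295 for Spry2. They gave, with silica averaged over smoke -0.022 to 0.091 for Dusp5 and -0.032 to 0.066 for Spry2, and with smoke averaged over silica -0.0069 to 0.102 for Dusp5, -0.026 to 0.0297 for Spred1 and -0.017 to 0.0599 for Spry4. In combined against air, Dusp5 was -0.087 with voom quality weights and -0.023 without 4 libraries. With silica averaged over smoke, Dusp5 was -0.0046 with library totals and -0.0703 with voom quality weights. Spry2 was -0.016 with library totals, -0.0043 with DESeq2, -0.029 with voom quality weights, -0.041 without 3 libraries and -0.077 without 4. With smoke averaged over silica, Dusp5 was -0.017 with voom quality weights, -0.0076 without 3 libraries and -0.059 without 4. Spred1 was 0.0069 with voom, 0.035 with voom quality weights, 0.036 without 3 libraries and 0.048 without 4. Spry4 was -0.016 with voom. Of 38 results of list genes none changed sign in 1315 refits, and 90 refits lost a call. Alternatives without smoke 2 and silica 4, and without silica 4 and combined 4, were chosen after seeing the data. No paired analysis was possible because the replicate numbers were given in the order of deposit and the labels pair no animals. Depth limits all 10 genes in smoke 2. In silica 4 it limits Egr1 at 0 counts, Spred2 at 4, Dusp5 at 7, Spry1 and Dusp4 at 8 each, Spry2 at 10 and Spry4 at 16.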
